A study of Mus musculus with 12 samples.

Results

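The gene set examined was that of imprinted genes, 43 symbols looked up by name in the table of read counts per gene. All 43 had a row among the 23086 symbols of the table, and 40 had at least 30 counts summed over the 12 libraries. Of these, 22 are known in the mouse as paternally expressed, 17 as maternally expressed, and for *Gnas* the parental origin depends on the transcript. They fall into 19 of the 20 imprinted regions on the list, and 38 of them were abundant enough to be tested. Together the 43 genes held between 0.267% and 0.321% of a library's counts.

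The libraries were made from total RNA of embryoid bodies, the aggregates in which embryonic stem cells start to differentiate, after 2 days. The stem cells were of the mouse A2lox.cre type, in which a transgene placed at the *Hprt* locus is switched on by the antibiotic doxycycline. The 4 groups of 3 libraries each were: FLAG-*Lhx1* mutant embryoid bodies given doxycycline for 16 h, the mutant ones without doxycycline, FLAG-*Lhx1* wild-type embryoid bodies given doxycycline for 16 h, and the wild-type ones without doxycycline. *Lhx1* encodes a LIM homeodomain transcription factor needed for head formation. The labels do not describe the mutation, and give 1 cell line per genotype without saying whether either is a single clone, so that an effect of the genotype and a difference between the 2 lines cannot be told apart. They do not say whether the replicates of a group were separate cultures, and the p-values below then measure the spread between these libraries, which may be technical. *Lhx1* itself was at 249.9, 260.2 and 235.1 CPM in the mutant line with doxycycline, 0.429, 0.407 and 0.428 CPM in the mutant line without it, 306.9, 289.3 and 292.6 CPM in the wild-type line with doxycycline, and 3.33, 1.81 and 1.12 CPM in the wild-type line without it. CPM are counts scaled to a common library size, and the libraries held 4289984 to 4850393 counts each.

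Imprinted genes are expressed mainly or only from the maternal or from the paternal chromosome, some of them only in certain tissues. The choice is set by DNA methylation laid down at control regions in the germ line and kept in the embryo by proteins such as ZFP57, TRIM28, DNMT1 and UHRF1. They lie in clusters in which protein-coding genes and long noncoding RNAs are often expressed from opposite parental chromosomes, and many act on growth and on the placenta. In cultured mouse stem cells imprints are known to be unstable. Read counts per gene do not tell the parental alleles apart, so the parental classes used below are those known in the mouse and were not measured here. In whole embryoid bodies fewer cells expressing a gene and less RNA per cell cannot be told apart.

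RefSeq promoter entries (build GRCm38.p6) matched 35 of the 43 symbols. The 250 bases before the annotated start are shown for *Plagl1*, *Nnat* and *Ddc*, members with large differences between the lines, and for *Mest*, the member with the largest response to doxycycline among those that passed the test, which was chosen after its values were seen. For genes with several annotated starts, the window with the most matches to the motif below was taken, and among equals the most upstream. Capitals mark TGCCGC, the hexamer bound by ZFP57 when methylated, or its reverse complement GCGGCA. The windows lie at chr10:13090582-13090831 on the plus strand, chr2:157559828-157560077 on the plus strand, chr11:11898145-11898394 on the minus strand and chr6:30737800-30738049 on the plus strand, each written 5′ to 3′ along the gene's own strand.
*Plagl1*: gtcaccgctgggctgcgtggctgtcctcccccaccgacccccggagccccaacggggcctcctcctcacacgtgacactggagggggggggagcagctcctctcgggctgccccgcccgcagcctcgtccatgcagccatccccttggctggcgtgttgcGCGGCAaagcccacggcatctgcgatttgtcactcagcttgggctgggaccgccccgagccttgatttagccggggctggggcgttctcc
*Nnat*: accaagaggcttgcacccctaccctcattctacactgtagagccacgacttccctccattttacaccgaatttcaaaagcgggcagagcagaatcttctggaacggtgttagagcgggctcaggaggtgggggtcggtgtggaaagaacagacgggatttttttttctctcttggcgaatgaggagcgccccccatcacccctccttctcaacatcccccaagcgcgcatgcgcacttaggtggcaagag
*Ddc*: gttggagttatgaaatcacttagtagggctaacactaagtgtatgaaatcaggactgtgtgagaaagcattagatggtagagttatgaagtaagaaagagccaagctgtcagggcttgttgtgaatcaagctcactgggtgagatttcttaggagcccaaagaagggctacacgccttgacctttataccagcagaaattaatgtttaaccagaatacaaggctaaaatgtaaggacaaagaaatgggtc
*Mest*: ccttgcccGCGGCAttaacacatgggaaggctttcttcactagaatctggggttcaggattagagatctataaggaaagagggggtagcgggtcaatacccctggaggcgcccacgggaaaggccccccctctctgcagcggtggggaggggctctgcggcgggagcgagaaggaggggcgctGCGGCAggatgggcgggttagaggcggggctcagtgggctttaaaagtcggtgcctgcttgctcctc
The *Plagl1* window held 19 CpG sites and 1 match to the hexamer, which begins at base -90 from the start. The *Mest* window held 14 CpG sites and 2 matches, which begin at bases -242 and -67. The *Nnat* window held 12 CpG sites and the *Ddc* window 1, and neither contained the hexamer. *Usp29*, whose log2 fold change without doxycycline (-1.78) was larger in size than that of *Ddc* (-1.75), is not shown. Its window held 14 CpG sites and did not contain the hexamer either. Over all 54 windows of the 35 genes, some of which overlap, the median was 10 CpG sites and 8 windows (14.8%) held the hexamer, beside a median of 6 sites and 8.68% of the 32851 windows in the whole promoter table. Both strands were searched. TAATTA, a core bound by many LIM homeodomain proteins, was searched as well. It occurred in 4.84% of all windows and in none of the 54. A match to these letters is a description of the window and not a binding site.

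Levels were compared between genes only after division by the length of the merged exons (GENCODE M21), averaged over the 12 libraries. *Nap1l4*, a nucleosome assembly protein of the *Kcnq1* cluster, was the highest at 60.8 CPM per kb. It was followed by the hydrolase-fold protein *Mest* at 52.7, the translational regulator *Impact* at 45.5, the tetraspanin *Cd81* at 42.2, *Gnas*, the stimulatory G protein subunit, at 34.00, the amino acid transporter *Slc38a4* at 32.9 and the retrotransposon-derived *Peg10* at 31.9 CPM per kb. Below them came *Phlda2* at 27.4, the noncoding *Rian* at 22.4 and *Grb10* at 20.7 CPM per kb. The lowest of the 40 were *Zim1* at 0.113, *Usp29* at 0.0752 and the noncoding *Kcnq1ot1* at 0.0609 CPM per kb. The place of *Kcnq1ot1* depends on its annotated length of 93092 bases, as it averaged 5.67 CPM before the division. *Kcnq1*, *Rasgrf1* and *Airn* had 6, 5 and 1 counts in all 12 libraries together and are not described further. Of the 40 genes 18 overlap an annotated gene on the opposite strand and 7 overlap one on the same strand, so their counts may include reads of the neighbour, and the notes do not say whether counting used strand.

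The lines differed at imprinted genes in both directions. Genes very low in the mutant line included the noncoding RNA *H19*, the membrane proteolipid *Nnat* and the zinc finger factor *Plagl1*. The noncoding RNAs *Rian*, *Meg3* and *Mirg* of the *Dlk1-Dio3* cluster and *Gnas* were higher in the mutant line. With doxycycline 22 of the 38 tested genes passed the test (57.9%), 11 of them higher and 11 lower in the mutant line, against a background of 44.4% of all 12322 genes tested. Without doxycycline 20 passed (52.6%), 8 higher and 12 lower, against a background of 45.5%. The share of imprinted genes called was thus not far from that of all genes. Called and at least 2-fold were 11 of the 38 genes with doxycycline, beside 7.01% of all genes. Without doxycycline these were 5 of the 38, beside 6.56% of all genes. At this cut the imprinted genes had the larger share in both comparisons, a difference that was not tested. The groups' libraries did not overlap for 23 of 38 genes with doxycycline and for 24 without it, beside 51.7% and 51.8% of all genes. The median log2 fold change was -0.10 with doxycycline and -0.13 without it, beside 0.01 and 0.0035 over all genes.

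By parental class, the 21 tested paternally expressed genes comprised 3 higher and 9 lower in the mutant line with doxycycline, and 2 higher and 10 lower without it, with median log2 fold changes of -0.28 and -0.33. The 16 tested maternally expressed genes comprised 7 higher and 2 lower with doxycycline, and 5 higher and 2 lower without it, with medians of 0.24 and 0.03. *Rian*, *Meg3* and *Mirg*, neighbours on the same strand, are among the higher ones in both and are counted separately, although their levels need not be independent. Over all genes 21.9% were higher and 22.4% lower with doxycycline, and 23% were higher and 22.6% lower without it. The cluster did not set a common direction everywhere. Of 8 clusters with at least 2 tested genes, *Grb10* and *Ddc* fell on opposite sides in both comparisons, as did members of the *Kcnq1* cluster without doxycycline.

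**Figure D1:**
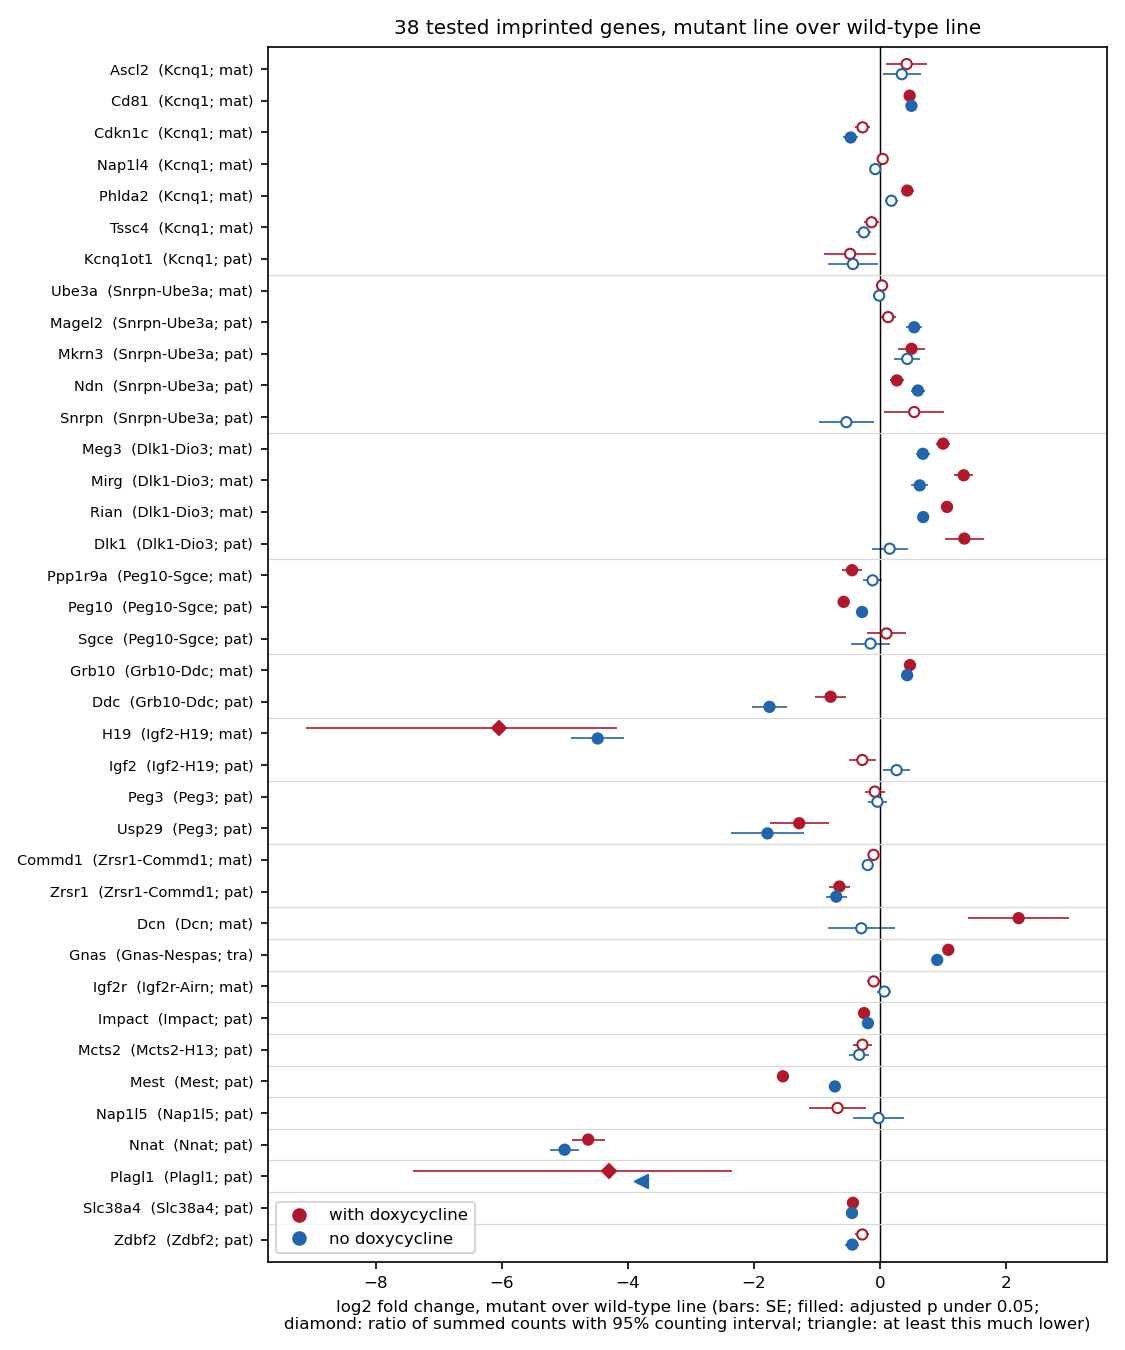
Log2 fold change of the mutant over the wild-type line for the 38 tested imprinted genes, grouped by cluster, with doxycycline (red, upper) and without it (blue, lower); bars are SE, and filled points passed the test at an adjusted p under 0.05. Diamonds give the ratio of summed counts with its 95% counting interval where the mutant group held 1 to 3 counts, and the triangle marks a lower bound on the fall of *Plagl1* where it held none. *H19*, *Nnat* and *Plagl1* lie farthest to the left, and the 4 *Dlk1-Dio3* genes lie right of 0.

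Sums of markers of other cell types differed between the lines as well. Summed over 7 neural ectoderm markers, the level was 243 to 269 CPM in the mutant line with doxycycline, 242 to 262 CPM in the mutant line without it, 131 to 141 CPM in the wild-type line with doxycycline, and 108 to 121 CPM in the wild-type line without it. The sum was led by *Nes*, at 185.7 ± 12.5 CPM in the mutant and 45.1 ± 3.00 CPM in the wild-type line with doxycycline. Of the 3 neural markers tested, 1 (*Nes*) was higher and 2 (*Tubb3* and *Pax6*) were lower in the mutant line with doxycycline, and 2 were higher and 0 lower without it. Summed over 9 extraembryonic endoderm markers it was 24.6 to 27.6 CPM in the mutant line with doxycycline, 22.9 to 32.4 CPM in the mutant line without it, 12.2 to 15.4 CPM in the wild-type line with doxycycline, and 17.6 to 19.4 CPM in the wild-type line without it. Of the 3 tested, 2 were higher in the mutant line with doxycycline and 1 without it, with 0 lower. The 9 trophoblast markers summed to between 7.84 and 11.6 CPM in any library, with *Tpbpa* and *Prl3d1* at 0 in all of them. The part of these cell types in the differences between the lines was not tested. The 12 markers of pluripotent and epiblast cells were all present, and summed to 5400 to 5590 CPM in the mutant line with doxycycline, 5510 to 5700 CPM in the mutant line without it, 4990 to 5140 CPM in the wild-type line with doxycycline, and 5290 to 5610 CPM in the wild-type line without it. Of these 12, 4 were higher and 4 lower in the mutant line with doxycycline, 4 were higher and 5 lower without it, and 2 were higher and 3 lower in the wild-type response to doxycycline.

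The *Igf2-H19* pair is the classical imprinted domain, in which the insulin-like growth factor gene *Igf2* is paternal and the growth-restraining noncoding RNA *H19* (chr7:142575529-142578143) is maternal. Almost no *H19* was counted in the mutant line. *H19* had 1, 1 and 0 counts in the mutant libraries with doxycycline, 1, 1 and 3 counts in the mutant libraries without it, 35, 36 and 53 counts in the wild-type libraries with doxycycline, and 28, 36 and 46 counts in the wild-type libraries without it. In CPM these were 0.219, 0.214 and 0 for mutant with doxycycline, 0.215, 0.203 and 0.642 for mutant without it, 7.999, 8.55 and 11.5 for wild type with doxycycline, and 6.66, 8.14 and 10.3 for wild type without it. No mutant library reached the lowest wild-type one. With doxycycline the ratio of the mutant to the wild-type level was 0.0151 (95% exact counting interval 0.00181 to 0.0557, adjusted p = 2.65e-15). Without doxycycline the log2 fold change was -4.48 (SE 0.42, adjusted p = 1.93e-13). *Igf2* had 7.02, 8.54 and 6.799 CPM in the mutant line with doxycycline, 9.66, 8.35 and 8.55 CPM in the mutant line without it, 7.08, 9.26 and 10.7 CPM in the wild-type line with doxycycline, and 10.5, 6.78 and 4.93 CPM in the wild-type line without it. The *Igf2* groups overlapped, and neither comparison of the lines passed the test (adjusted p = 0.3 with doxycycline and 0.316 without it). The comparison without doxycycline passed only when the first wild-type library was left out (adjusted p = 0.0405). *Igf2r*, the maternally expressed receptor that removes IGF2, averaged 88.04 ± 6.73 CPM in the mutant line with doxycycline, 86.7 ± 12.96 CPM in the mutant line without it, 94.3 ± 10.3 CPM in the wild-type line with doxycycline, and 82.4 ± 7.78 CPM in the wild-type line without it (SD, n = 3 each). It passed neither test.

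*Nnat* (chr2:157560078-157562522) encodes neuronatin, a small membrane protein, and lies in an intron of *Blcap* on the opposite strand. *Nnat* had 0.877, 0.855 and 0.618 CPM in the mutant line with doxycycline, 0.859, 1.02 and 0.856 CPM in the mutant line without it, 17.6, 20.9 and 21.3 CPM in the wild-type line with doxycycline, and 29.7, 28.5 and 32.05 CPM in the wild-type line without it. It stood at the level of a few reads in every mutant library, with 4, 4 and 3 counts with doxycycline and 4, 5 and 4 without it. The mutant line was lower with doxycycline (log2 fold change -4.63, SE 0.26, adjusted p = 6.61e-22) and without it (log2 fold change -5.00, SE 0.23, adjusted p = 9.81e-26). Its host *Blcap* went the other way, higher in the mutant line with doxycycline (log2 fold change 0.58, SE 0.11, adjusted p = 1.78e-05), while without it the difference did not pass (log2 fold change 0.21, adjusted p = 0.111).

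*Plagl1* (chr10:13060504-13131694) encodes a zinc finger transcription factor that is known to act on other imprinted genes. Its counts were 1, 0 and 1 in the mutant libraries with doxycycline, 0, 0 and 0 in the mutant libraries without it, 6, 14 and 17 in the wild-type libraries with doxycycline, and 16, 10 and 12 in the wild-type libraries without it. In CPM the wild-type libraries held 1.37, 3.33 and 3.696 with doxycycline and 3.81, 2.26 and 2.69 without it. All wild-type libraries therefore exceeded all mutant ones, at low depth. Without doxycycline the mutant level was at least 13.8-fold lower, taking 3 counts over the group as the floor, and the 95% exact counting interval of the ratio of mutant to wild type reached up to 0.0937 (adjusted p = 8.27e-08). With doxycycline the ratio of mutant to wild type was 0.0506 (95% exact counting interval 0.0059 to 0.196, adjusted p = 2.55e-06). These intervals and the floor cover counting error only.

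*Usp29* (chr7:6730578-6967219), a ubiquitin-specific protease, and the zinc finger gene *Peg3* (chr7:6703892-6730431) start next to each other on opposite strands and are both paternal. *Usp29* had 1.096, 0.641 and 1.03 CPM in the mutant line with doxycycline, 0.644, 0.407 and 0.428 CPM in the mutant line without it, 1.83, 2.38 and 2.61 CPM in the wild-type line with doxycycline, and 1.67, 0.904 and 2.69 CPM in the wild-type line without it. The mutant libraries lay below the wild-type ones within each treatment, by a log2 fold change of -1.28 with doxycycline (SE 0.47, adjusted p = 0.0237) and -1.78 without it (SE 0.58, adjusted p = 0.00919). Both calls depended on single libraries. Without doxycycline the adjusted p was 0.108 when the third wild-type library was left out. With doxycycline it was 0.0949 without the second mutant library, 0.0534 and 0.0877 without the second or the third wild-type library, and 0.105 with DESeq2. *Peg3* averaged 47.8 ± 3.96 CPM in the mutant line with doxycycline, 46.3 ± 6.48 CPM in the mutant line without it, 50.6 ± 9.13 CPM in the wild-type line with doxycycline, and 47.4 ± 8.52 CPM in the wild-type line without it (SD, n = 3 each). *Peg3* passed the test in neither comparison (adjusted p = 0.721 and 0.878). *Zim1*, a maternal zinc finger gene of the same cluster with 49 counts in all, did not pass the filter on low counts and averaged 0.497 ± 0.125 CPM in the mutant line with doxycycline, 0.354 ± 0.130 CPM in the mutant line without it, 1.22 ± 0.181 CPM in the wild-type line with doxycycline, and 1.59 ± 0.794 CPM in the wild-type line without it (SD, n = 3 each).

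In the *Grb10-Ddc* pair, the maternal gene was higher and the paternal gene lower in the mutant line. *Grb10* (chr11:11930508-12038683) encodes an adaptor that restrains insulin and IGF signalling, and had 227, 215 and 216 CPM in the mutant line with doxycycline, 208, 227 and 211 CPM in the mutant line without it, 153, 162 and 156 CPM in the wild-type line with doxycycline, and 159, 159 and 159.6 CPM in the wild-type line without it. No mutant library overlapped a wild-type one. The rise was 0.48 on the log2 scale with doxycycline (SE 0.05, adjusted p = 2.38e-11) and 0.44 without it (SE 0.05, adjusted p = 4.42e-10). *Ddc* (chr11:11814101-11898144) encodes dopa decarboxylase, an enzyme of dopamine and serotonin synthesis, and had 5.700, 3.42 and 3.502 CPM in the mutant line with doxycycline, 2.58, 2.65 and 2.14 CPM in the mutant line without it, 7.31, 7.600 and 6.74 CPM in the wild-type line with doxycycline, and 6.66, 11.1 and 7.17 CPM in the wild-type line without it. The mutant libraries again lay below the wild-type ones, more clearly without doxycycline (log2 fold change -1.75, SE 0.27, adjusted p = 2.90e-07) than with it (log2 fold change -0.78, SE 0.25, adjusted p = 0.00839), although this difference itself did not pass the test (adjusted p = 0.203). The call with doxycycline was lost without the second mutant library (adjusted p = 0.0542) and without the third (0.0522).

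**Figure D2:**
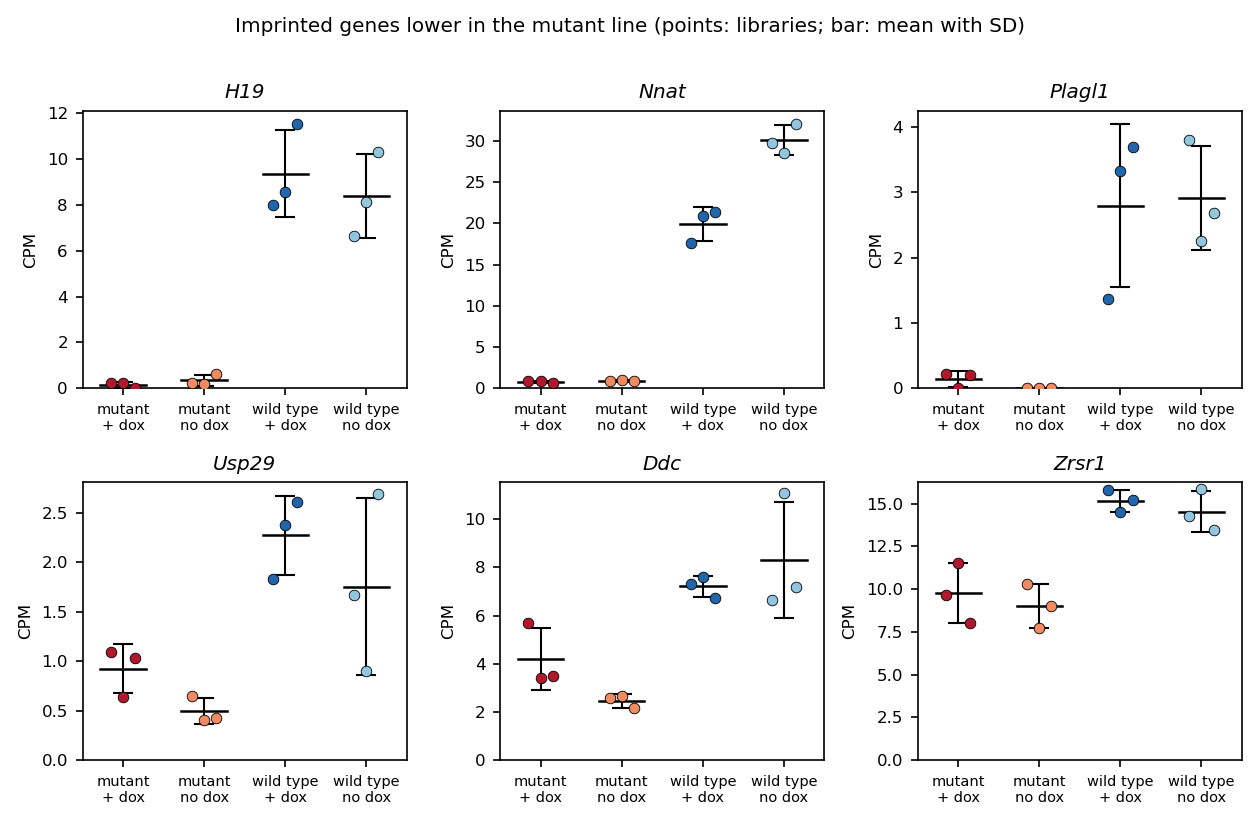
CPM of *H19*, *Nnat*, *Plagl1*, *Usp29*, *Ddc* and *Zrsr1* in each of the 12 libraries (points), with the mean and SD of each group (bars), for the mutant line with and without doxycycline and the wild-type line with and without it. Mutant libraries of *H19*, *Nnat* and *Plagl1* sit at or near 0, and those of *Usp29*, *Ddc* and *Zrsr1* lie below the wild-type libraries of the same treatment.

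The *Dlk1-Dio3* cluster on chromosome 12 combines maternal noncoding RNAs, which host many small RNAs, with paternal protein-coding genes such as *Dlk1*, a Delta-like membrane protein. Its 3 noncoding RNAs were higher in the mutant line with and without doxycycline. *Rian* (chr12:109603940-109661716), a host of small nucleolar RNAs, had 535, 518 and 516 CPM in the mutant line with doxycycline, 539.5, 526 and 535 CPM in the mutant line without it, 246, 244 and 258 CPM in the wild-type line with doxycycline, and 315, 345 and 332 CPM in the wild-type line without it. Every mutant library exceeded every wild-type library, and the wild-type libraries with doxycycline were the lowest. The mutant line was higher with doxycycline (log2 fold change 1.07, SE 0.04, adjusted p = 6.83e-28) and without it (log2 fold change 0.69, SE 0.04, adjusted p = 5.42e-20). *Meg3* (chr12:109541001-109571726), a noncoding RNA with growth-restraining activity, had 267, 221 and 232 CPM in the mutant line with doxycycline, 253, 242 and 277 CPM in the mutant line without it, 113, 128 and 117 CPM in the wild-type line with doxycycline, and 134, 173 and 173 CPM in the wild-type line without it. Its order of groups was that of *Rian*, with no overlap between the lines, and both comparisons passed (log2 fold change 1.01, SE 0.11, adjusted p = 3.56e-05 with doxycycline; log2 fold change 0.69, SE 0.11, adjusted p = 0.000442 without it). *Mirg* (chr12:109729764-109749460), a host of microRNAs, had 23.9, 19.6 and 25.3 CPM in the mutant line with doxycycline, 21.5, 23.8 and 25.2 CPM in the mutant line without it, 10.5, 7.600 and 9.13 CPM in the wild-type line with doxycycline, and 14.3, 16.7 and 14.3 CPM in the wild-type line without it. It too was higher in the mutant line with doxycycline (log2 fold change 1.33, SE 0.15, adjusted p = 1.40e-10) and without it (log2 fold change 0.64, SE 0.14, adjusted p = 0.000109).

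*Dlk1* (chr12:109452823-109463336) was measured at a few CPM, with 4.38, 7.904 and 5.15 CPM in the mutant line with doxycycline, 3.22, 5.09 and 4.71 CPM in the mutant line without it, 2.06, 1.900 and 2.83 CPM in the wild-type line with doxycycline, and 4.76, 3.39 and 3.59 CPM in the wild-type line without it. With doxycycline the mutant libraries lay above the wild-type ones (log2 fold change 1.34, SE 0.30, adjusted p = 0.000248). Without it the groups overlapped and the test was not passed (adjusted p = 0.683). *Dio3*, the paternal gene for a thyroid hormone deiodinase at the other end of the cluster, is not on the list of 43 and was singled out after its values were seen. It averaged 2.55 ± 0.177 CPM in the mutant line with doxycycline, 3.09 ± 0.106 CPM in the mutant line without it, 0.774 ± 0.702 CPM in the wild-type line with doxycycline, and 0.761 ± 0.786 CPM in the wild-type line without it (SD, n = 3 each). It was called higher in the mutant line in both comparisons (adjusted p = 0.00792 and 0.00141). These calls rest on few counts in the wild-type line and were not examined in the alternative fits.

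*Gnas* (chr2:174284320-174346744) encodes the stimulatory G protein alpha subunit, and its locus also makes transcripts from the maternal and from the paternal chromosome alone, which counts per gene pool. *Gnas* had 503, 516 and 505 CPM in the mutant line with doxycycline, 508, 499.9 and 512 CPM in the mutant line without it, 249, 228 and 239 CPM in the wild-type line with doxycycline, and 253, 287 and 267 CPM in the wild-type line without it. All mutant libraries lay near 500 and all wild-type libraries under 290 CPM. The mutant line was higher with doxycycline (log2 fold change 1.09, SE 0.05, adjusted p = 1.52e-27) and without it (log2 fold change 0.91, SE 0.05, adjusted p = 4.29e-24).

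*Mest* (chr6:30723547-30748465), a paternal gene long used as a marker of embryonic mesoderm, was lower in the mutant line in both states. *Mest* had 136, 125 and 126 CPM in the mutant line with doxycycline, 115, 128 and 130.0 CPM in the mutant line without it, 390.4, 366 and 368 CPM in the wild-type line with doxycycline, and 210.3, 204 and 198 CPM in the wild-type line without it. The mutant libraries with and without doxycycline overlapped each other and lay below every wild-type library, and the wild-type libraries with doxycycline stood highest. The difference was larger with doxycycline (log2 fold change -1.54, SE 0.05, adjusted p = 5.94e-32) than without it (log2 fold change -0.71, SE 0.06, adjusted p = 2.88e-16). *Copg2*, which overlaps *Mest* on the opposite strand and was named after its values were seen, was higher in the mutant line without doxycycline (log2 fold change 0.25, SE 0.09, adjusted p = 0.0161) and did not pass with it (log2 fold change 0.11, adjusted p = 0.323). The 7 mesoderm markers summed to 4.06 to 6.39 CPM in the mutant line with doxycycline, 4.51 to 6.42 CPM in the mutant line without it, 3.66 to 4.78 CPM in the wild-type line with doxycycline, and 2.62 to 4.30 CPM in the wild-type line without it. Their part in the *Mest* values was not tested.

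**Figure D3:**
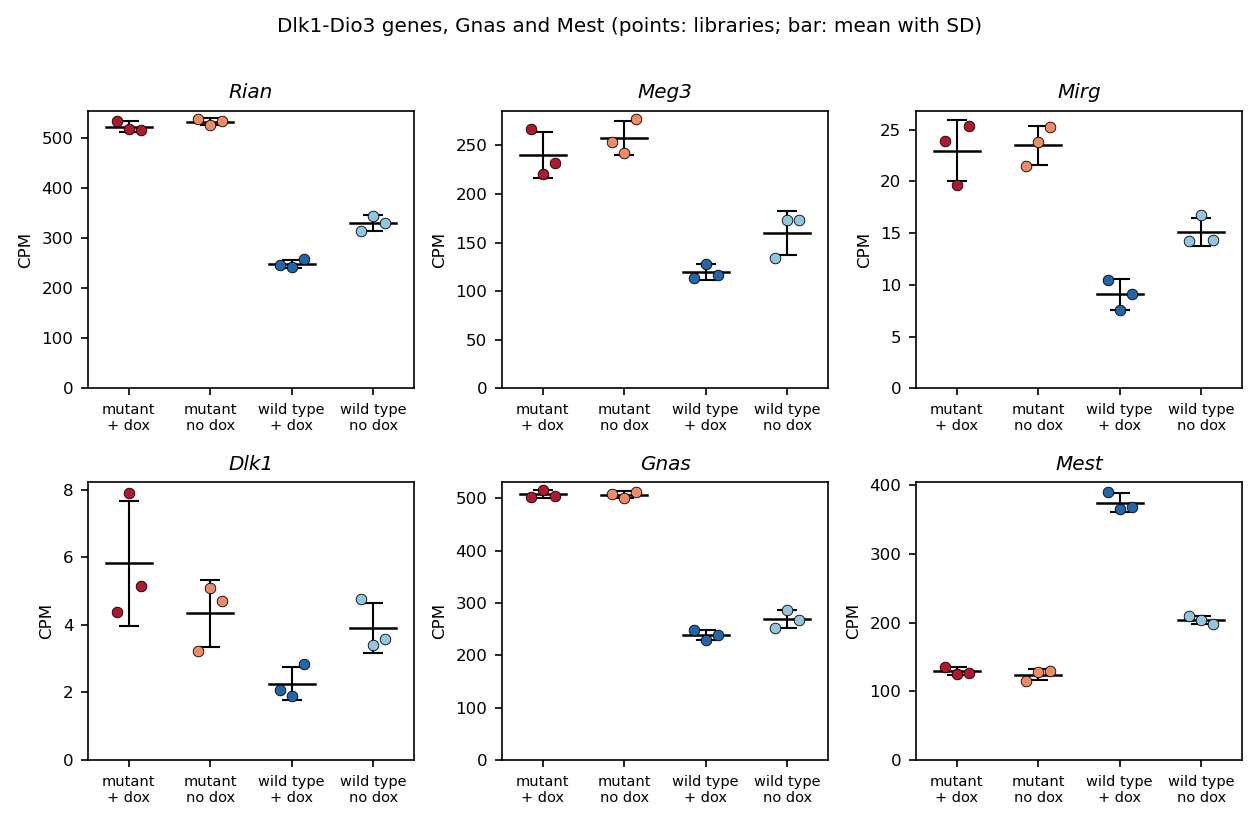
CPM of *Rian*, *Meg3*, *Mirg*, *Dlk1*, *Gnas* and *Mest* in each of the 12 libraries (points), with the mean and SD of each group (bars). *Rian*, *Meg3*, *Mirg* and *Gnas* are higher in all mutant libraries than in all wild-type libraries, and *Mest* is highest in the 3 wild-type libraries with doxycycline, at 366 to 390.4 CPM.

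In the *Kcnq1* cluster on chromosome 7 the paternal noncoding RNA *Kcnq1ot1* silences, in cis, the paternal copies of maternally expressed genes. The cluster had 7 tested genes. With doxycycline 2 were higher in the mutant line (*Cd81* and *Phlda2*) and 0 lower, and without it 1 was higher (*Cd81*) and 1 lower (*Cdkn1c*). Of all genes, 21.9% were higher and 22.4% lower with doxycycline, and 23% were higher and 22.6% lower without it. *Cd81* (chr7:143052739-143067934) had 140.3, 144 and 142 CPM in the mutant line with doxycycline, 134, 137 and 154 CPM in the mutant line without it, 93.2, 116 and 97.6 CPM in the wild-type line with doxycycline, and 102, 98.1 and 99.97 CPM in the wild-type line without it. The lines did not overlap, with log2 fold changes of 0.48 with doxycycline (SE 0.07, adjusted p = 2.05e-08) and 0.50 without it (SE 0.07, adjusted p = 5.45e-09). *Phlda2*, known for restraining placental growth, averaged 36.2 ± 2.53 CPM in the mutant and 26.7 ± 2.58 CPM in the wild-type line with doxycycline (adjusted p = 0.000597), and 31.9 ± 1.02 CPM in the mutant and 27.98 ± 2.98 CPM in the wild-type line without it (adjusted p = 0.161). *Cdkn1c*, an inhibitor of cyclin-dependent kinases, averaged 21.5 ± 0.269 CPM in the mutant and 26.02 ± 3.18 CPM in the wild-type line with doxycycline, which did not pass (adjusted p = 0.057, and 0.017 without the third wild-type library). Without doxycycline *Cdkn1c* averaged 21.7 ± 1.496 CPM in the mutant and 29.8 ± 1.899 CPM in the wild-type line (adjusted p = 0.000799).

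The other 4 tested genes of the *Kcnq1* cluster were called in neither comparison of the lines. *Nap1l4* had 188, 201 and 186 CPM in the mutant line with doxycycline, 185, 181 and 185 CPM in the mutant line without it, 182, 177 and 196 CPM in the wild-type line with doxycycline, and 185, 192 and 201 CPM in the wild-type line without it, with all groups overlapping except the 2 mutant ones. *Tssc4* lay between 20.9 and 26.2 CPM and the trophoblast factor *Ascl2* between 2.59 and 4.02 CPM as group means. *Kcnq1ot1* averaged 4.55 ± 0.934 CPM in the mutant line with doxycycline, 5.05 ± 0.485 CPM in the mutant line without it, 6.34 ± 2.42 CPM in the wild-type line with doxycycline, and 6.75 ± 4.46 CPM in the wild-type line without it (SD, n = 3 each). The wide spread of its wild-type groups came from single libraries, at 4.34, 9.03 and 5.65 CPM with doxycycline and 4.52, 3.84 and 11.9 CPM without it. The 2 highest of these were also the libraries that stood apart in other genes. The second wild-type library with doxycycline held 1.45% of its counts in the ribosomal RNA precursor *Rn45s*, against 0.0884% to 0.265% in the other libraries. The third wild-type library without doxycycline held 229.3 CPM of the hypoxia-responsive *Bnip3*, against 58.5 and 63.3 CPM in the others of its group. *Bnip3* was at 52.1 to 106.5 CPM in the wild-type line with doxycycline. In the mutant line it was at 83.4 to 133.7 CPM with doxycycline and 109.1 to 148.2 CPM without it.

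The *Snrpn-Ube3a* cluster, known from the Prader-Willi and Angelman syndromes, had 5 tested genes, of which 2 were higher in the mutant line in each comparison and 0 lower. Of all genes, 21.9% were higher with doxycycline and 23% without it. The 3 involved were the paternal MAGE-family genes *Ndn* and *Magel2* and the paternal ring-finger gene *Mkrn3*. *Ndn* averaged 32.3 ± 2.404 CPM in the mutant and 26.7 ± 2.32 CPM in the wild-type line with doxycycline (log2 fold change 0.27, SE 0.11, adjusted p = 0.0405), and 33.3 ± 2.999 CPM in the mutant and 21.9 ± 2.796 CPM in the wild-type line without it (log2 fold change 0.61, SE 0.12, adjusted p = 1.63e-05). *Magel2* averaged 25.96 ± 0.376 CPM in the mutant and 23.7 ± 0.595 CPM in the wild-type line with doxycycline, not passing (adjusted p = 0.397), and 27.2 ± 4.15 CPM in the mutant and 18.6 ± 3.58 CPM in the wild-type line without it, where it was called higher (adjusted p = 0.000363). *Mkrn3*, a brake on puberty in mice and humans, averaged 8.74 ± 1.42 CPM in the mutant and 6.11 ± 1.14 CPM in the wild-type line with doxycycline (adjusted p = 0.0434), and 8.500 ± 0.459 CPM in the mutant and 6.26 ± 1.04 CPM in the wild-type line without it (adjusted p = 0.0812). The calls with doxycycline of *Ndn* and *Mkrn3* depended on single libraries and on the method. For *Ndn* the adjusted p was 0.0565 and 0.186 without the second or the third mutant library, 0.167 and 0.0744 without the second or the third wild-type one, and 0.143 with DESeq2. For *Mkrn3* it was 0.184 and 0.0904 without the first or the third mutant library, and 0.12 and 0.153 without the first or the second wild-type one. It was 0.15 with DESeq2, 0.0502 with limma-voom and 0.0575 without the filter on low counts. Without doxycycline *Mkrn3* passed when the second wild-type library was left out (adjusted p = 0.0475).

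The maternal ubiquitin ligase *Ube3a* had 99.1, 86.95 and 107 CPM in the mutant line with doxycycline, 112, 94.04 and 93.7 CPM in the mutant line without it, 84.1, 106 and 95.9 CPM in the wild-type line with doxycycline, and 99.4, 98.1 and 104 CPM in the wild-type line without it. Its groups overlapped, with adjusted p = 0.747 with doxycycline and 0.942 without it. *Snrpn*, a spliceosomal protein gene whose counts can be shared with the overlapping *Snurf*, averaged 2.33 ± 0.688 CPM in the mutant line with doxycycline, 1.900 ± 0.402 CPM in the mutant line without it, 1.59 ± 0.670 CPM in the wild-type line with doxycycline, and 2.72 ± 2.28 CPM in the wild-type line without it (SD, n = 3 each). It passed neither test. *Peg12*, with 65 counts in all, did not pass the filter and averaged between 0.998 and 1.40 CPM per group.

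Several paternally expressed genes of other regions were modestly lower in the mutant line. *Slc38a4*, a transporter of neutral amino acids, had 122, 129 and 119 CPM in the mutant line with doxycycline, 119, 117 and 110.1 CPM in the mutant line without it, 158, 166 and 172 CPM in the wild-type line with doxycycline, and 149.9, 154 and 167 CPM in the wild-type line without it. The lines did not overlap (log2 fold change -0.42, adjusted p = 1.57e-08 with doxycycline, and -0.44, adjusted p = 9.12e-09 without it). *Impact*, an inhibitor of the kinase GCN2, had 209.6, 216 and 227 CPM in the mutant line with doxycycline, 217, 218 and 208 CPM in the mutant line without it, 262, 261 and 251 CPM in the wild-type line with doxycycline, and 252, 256 and 225 CPM in the wild-type line without it. It was lower by a small amount in both states (log2 fold change -0.25, adjusted p = 5.22e-05 with doxycycline, and -0.19, adjusted p = 0.00202 without it). *Zrsr1*, a splicing factor retrogene in an intron of the maternal *Commd1*, had 9.65, 11.5 and 8.04 CPM in the mutant line with doxycycline, 10.3, 7.74 and 8.98 CPM in the mutant line without it, 15.8, 14.5 and 15.2 CPM in the wild-type line with doxycycline, and 14.3, 15.8 and 13.4 CPM in the wild-type line without it. Every mutant library lay below every wild-type library (log2 fold change -0.64, adjusted p = 0.00104 with doxycycline, and -0.69, adjusted p = 0.000586 without it). *Commd1* had an adjusted p of 0.351 with doxycycline and 0.0521 without it, the second of which became 0.0292 without the second wild-type library, 0.0455 with upper-quartile scaling and 0.0463 with RLE scaling.

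*Peg10*, needed for the placenta, had 170.3, 170.0 and 184 CPM in the mutant line with doxycycline, 199, 200.3 and 164 CPM in the mutant line without it, 236, 289.5 and 255 CPM in the wild-type line with doxycycline, and 236, 206 and 243 CPM in the wild-type line without it. It was lower in the mutant line with doxycycline (log2 fold change -0.57, SE 0.09, adjusted p = 0.000407), with no overlap. Without doxycycline it was lower as well (log2 fold change -0.28, SE 0.10, adjusted p = 0.0317), and the adjusted p became 0.0984 and 0.127 without the first or the third wild-type library. *Zdbf2*, a zinc finger gene, had 117, 122 and 118 CPM in the mutant line with doxycycline, 121, 125 and 103 CPM in the mutant line without it, 125, 169.6 and 138 CPM in the wild-type line with doxycycline, and 168, 141 and 164 CPM in the wild-type line without it. It was called lower in the mutant line without doxycycline (log2 fold change -0.43, SE 0.11, adjusted p = 0.00937) and not with it (adjusted p = 0.0742, and 0.00242 without the first wild-type library). With doxycycline it also passed with DESeq2 (0.0146), in the fit of only the libraries compared (0.0173) and without the filter on low counts (7.70e-05). Of the neighbours of *Peg10*, the neurabin gene *Ppp1r9a* averaged 20.98 ± 1.05 CPM in the mutant and 28.5 ± 7.195 CPM in the wild-type line with doxycycline (adjusted p = 0.0249). That call was lost without any 1 of 5 of the 6 libraries compared (adjusted p from 0.0522 to 0.173). *Sgce*, the sarcoglycan gene that shares the *Peg10* promoter region, was called in neither comparison at 4.35 ± 0.882 CPM in the mutant line with doxycycline, 3.996 ± 0.327 CPM in the mutant line without it, 3.998 ± 0.736 CPM in the wild-type line with doxycycline, and 4.43 ± 2.57 CPM in the wild-type line without it.

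*Dcn*, the matrix proteoglycan decorin, had 1.31, 2.78 and 2.47 CPM in the mutant line with doxycycline, 3.01, 2.24 and 1.28 CPM in the mutant line without it, 0.686, 0.475 and 0.217 CPM in the wild-type line with doxycycline, and 1.19, 0.904 and 5.83 CPM in the wild-type line without it. It was called higher in the mutant line with doxycycline (log2 fold change 2.21, SE 0.80, adjusted p = 0.0304), and this call was lost without either of the second and the third mutant libraries or any of the 3 wild-type ones (adjusted p from 0.0513 to 0.114). The highest *Dcn* value stood in the third wild-type library without doxycycline, the one high in *Bnip3*. Decorin is abundant in fibroblasts, and 10 fibroblast markers summed to 17.3 to 20.2 CPM in the mutant line with doxycycline, 15.3 to 19.7 CPM in the mutant line without it, 17.6 to 20.2 CPM in the wild-type line with doxycycline, and 17 to 27.3 CPM in the wild-type line without it, with *Fap* at 0 in all groups. Their part in the *Dcn* values was not tested. The retrogenes *Mcts2* and *Nap1l5* were called in neither comparison, at group means of 11.9 to 14.9 CPM and 1.28 to 2.05 CPM.

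In the wild-type line doxycycline was followed by a rise of *Mest* and by falls of the *Dlk1-Dio3* RNAs *Rian* and *Mirg*, of *Nnat* and of *Gnas*. These 5 of the 38 tested genes were called (13.2%), 1 higher and 4 lower, against a background of 5.32% of all 12322 genes. None of the 5 changed 2-fold, where 0.868% of all genes did. For 9 of the 38 the libraries of the groups did not overlap, beside 18.9% of all genes. The median log2 fold change was -0.04, beside -0.00344 over all genes. The wild-type libraries without doxycycline serve both here and in the comparison of the lines, so that a high or low value in them enters both.

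*Mest* averaged 375 ± 13.6 CPM with doxycycline and 204 ± 6.29 CPM without it in the wild-type line (SD, n = 3 each). The lowest library with doxycycline lay above the highest without it (log2 fold change 0.88, SE 0.05, adjusted p = 1.31e-20). *Mirg* averaged 9.08 ± 1.46 CPM with doxycycline and 15.1 ± 1.399 CPM without it (log2 fold change -0.73, SE 0.17, adjusted p = 0.0026). *Rian* averaged 249 ± 7.99 CPM with doxycycline and 331 ± 15.2 CPM without it (log2 fold change -0.41, SE 0.05, adjusted p = 5.45e-10). All libraries with doxycycline lay below those without it for both noncoding RNAs. *Nnat* averaged 19.9 ± 2.03 CPM with doxycycline and 30.1 ± 1.81 CPM without it, again without overlap (log2 fold change -0.59, SE 0.12, adjusted p = 0.000476). The fall of *Gnas* was the smallest, to 239 ± 10.1 CPM with doxycycline, against 269 ± 17.2 CPM without it (log2 fold change -0.17, SE 0.05, adjusted p = 0.0164). It was lost with DESeq2 (adjusted p = 0.0776), in the fit of only the libraries compared (0.0693), without the second library lacking doxycycline (0.226), and without the second or the third library given it (0.129 and 0.0738).

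*Meg3* and *Dlk1*, of the same cluster as *Rian* and *Mirg*, also had non-overlapping libraries but did not pass the test. *Meg3* averaged 119.5 ± 7.94 CPM with doxycycline and 160.0 ± 22.6 CPM without it (log2 fold change -0.42, SE 0.12, adjusted p = 0.0781). With DESeq2 its adjusted p was 0.000396, and it was 1.00e-06 without the first library lacking doxycycline, 0.0113 in the fit of only the libraries compared and 9.43e-09 without the filter on low counts. *Dlk1* averaged 2.26 ± 0.496 CPM with doxycycline and 3.91 ± 0.739 CPM without it (log2 fold change -0.77, SE 0.34, adjusted p = 0.225). *Dcn* had a fitted log2 fold change of -2.48 (adjusted p = 0.0727), and passed without the first or the second library lacking doxycycline (adjusted p = 0.0108 and 0.0031), without the filter on low counts (0.000442) and with DESeq2 (0.04998). *Zdbf2* passed only without the second library given doxycycline (adjusted p = 0.0222), and *Peg10* only without the filter on low counts (0.013). *H19* and *Plagl1*, nearly absent from the mutant line, did not pass between the wild-type libraries with and without doxycycline, with log2 fold changes of 0.16 (SE 0.21, adjusted p = 0.802) for *H19* and -0.05 (SE 0.37, adjusted p = 0.974) for *Plagl1*.

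In the mutant line the edgeR quasi-likelihood test called 0 of the 38 imprinted genes between doxycycline and none, against a background of 0.0162% of all genes, which is 2 genes. DESeq2 and limma-voom called 0 of them as well. At an unadjusted p under 0.05 there was 1, *Ddc*, which averaged 4.21 ± 1.29 CPM with doxycycline and 2.45 ± 0.275 CPM without it (adjusted p = 0.999). The libraries of the groups did not overlap for 4 genes, *Ddc*, *Nap1l4*, *Phlda2* and *Tssc4*, beside 10.6% of all genes. *Mest* averaged 129 ± 6.08 CPM with doxycycline and 124 ± 8.34 CPM without it (log2 fold change 0.05, SE 0.06, adjusted p = 0.999). *Rian* averaged 523 ± 10.6 CPM with doxycycline and 534 ± 6.66 CPM without it (log2 fold change -0.03, SE 0.04, adjusted p = 0.999). A p that misses the threshold does not show that these values were equal.

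The difference between the responses of the mutant and the wild-type line was tested directly. It passed for 2 of the 38 imprinted genes (5.26%), against a background of 2.49% of all genes, and neither difference was 2-fold, where 0.625% of all genes were called and differed 2-fold. For *Mest* the response was 0.05 in the mutant line and 0.88 in the wild-type line on the log2 scale, and the difference was -0.83 (SE 0.08, adjusted p = 4.85e-12). For *Rian* the response was -0.03 in the mutant line and -0.41 in the wild-type line, and the difference was 0.38 (SE 0.06, adjusted p = 2.08e-05). *Mirg* came next with a difference of 0.70 (SE 0.21, adjusted p = 0.0566), which passed without the third mutant library lacking doxycycline (0.0441), without the second mutant library given it (0.0299) without the first wild-type library given it (0.0384) or without the filter on low counts (0.0486). The differences of *Meg3* (adjusted p = 0.439), *Dlk1* (0.15), *Gnas* (0.162) and *Nnat* (0.883) did not pass. *Phlda2* (0.521), *Cdkn1c* (0.712), *Magel2* (0.273) and *Zdbf2* (0.779) did not pass either. Each of these was called between the lines with or without doxycycline but not in both. *Meg3* passed without the first wild-type library lacking doxycycline (0.00397) and without the filter on low counts (0.00926). *Peg10* (adjusted p = 0.394) passed without the third mutant library lacking doxycycline (0.0295) and without the filter (0.00889). *Dcn* (adjusted p = 0.242) passed without the second wild-type library lacking doxycycline (0.0417) and without the filter (0.0235).

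**Figure D4:**
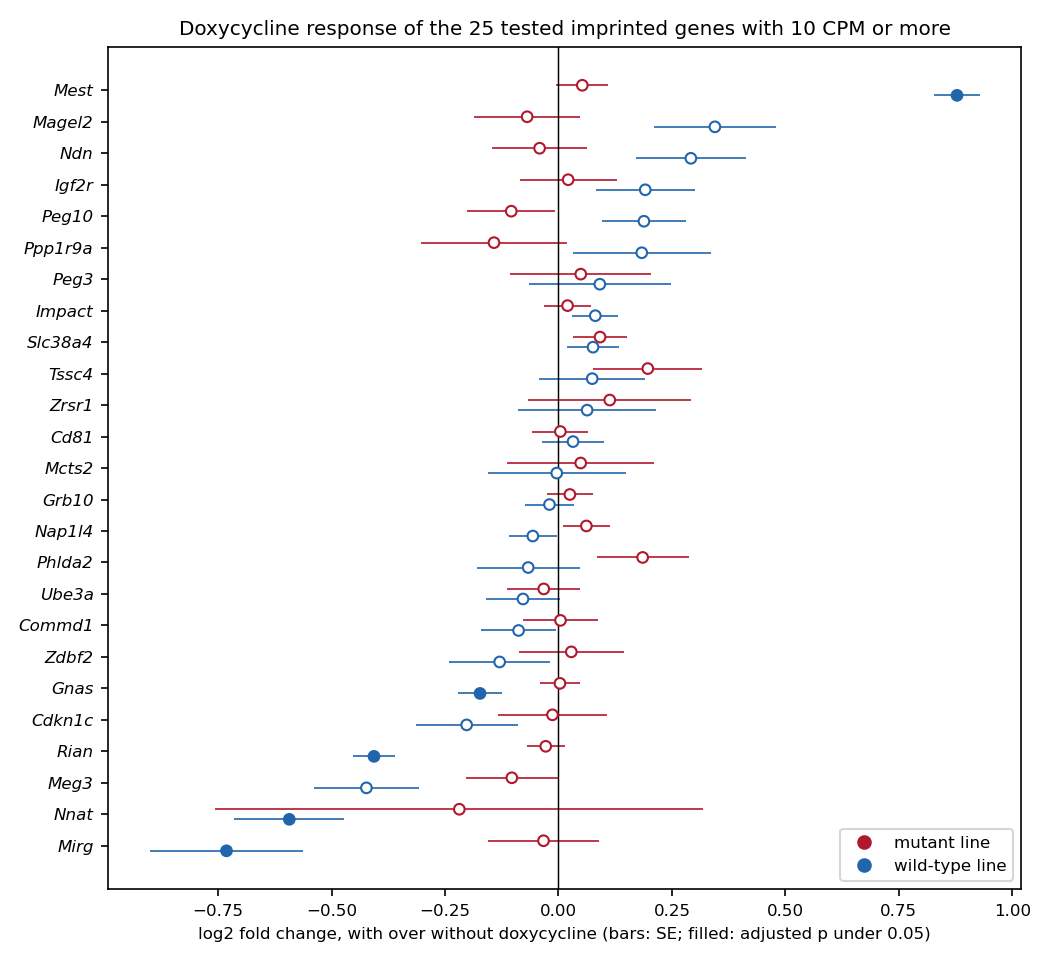
Log2 fold change with over without doxycycline in the mutant line (red, upper) and the wild-type line (blue, lower) for the 25 tested imprinted genes with 10 CPM or more on average, ordered by the wild-type value; bars are SE, and filled points passed the test at an adjusted p under 0.05. *Mest* stands alone at the top in the wild-type line at 0.88, *Mirg*, *Nnat*, *Rian* and *Gnas* are the filled points to the left, and all points of the mutant line are open.

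Genes for imprint maintenance and DNA methylation factors were lower in the mutant line more often than higher. The list also holds chromatin proteins such as *Ctcf*, *Eed*, *Ezh2*, *Setdb1*, *Ehmt1* and *Ehmt2*. The factors detailed in this paragraph were all lower in the mutant line. Of 22 such factors, all tested, 14 were lower and 3 higher in the mutant line with doxycycline, and 11 were lower and 2 higher without it, beside the backgrounds of 22.4% lower and 21.9% higher with doxycycline and 22.6% lower and 23% higher without it. *Dnmt3l*, the cofactor of the de novo methyltransferases, had 60.95, 64.5 and 66.8 CPM in the mutant line with doxycycline, 62.7, 58.8 and 65.02 CPM in the mutant line without it, 200.4, 191 and 197 CPM in the wild-type line with doxycycline, and 201, 205 and 201 CPM in the wild-type line without it. The mutant line held less of it in every library (log2 fold change -1.61, SE 0.06, adjusted p = 5.67e-30 with doxycycline and log2 fold change -1.70, SE 0.06, adjusted p = 5.32e-31 without it). *Zfp57*, which binds the methylated hexamer shown above, had 31.1, 23.5 and 28.2 CPM in the mutant line with doxycycline, 30.9, 27.3 and 26.7 CPM in the mutant line without it, 60.8, 60.3 and 59.8 CPM in the wild-type line with doxycycline, and 50.7, 61.7 and 45.95 CPM in the wild-type line without it. Its lines did not overlap (log2 fold change -1.13, SE 0.10, adjusted p = 8.99e-14 with doxycycline and log2 fold change -0.90, SE 0.10, adjusted p = 1.89e-10 without it). *Dppa3*, which protects methylation in the early embryo, had 4.38, 3.42 and 4.74 CPM in the mutant line with doxycycline, 2.58, 4.48 and 4.06 CPM in the mutant line without it, 14.4, 12.8 and 11.1 CPM in the wild-type line with doxycycline, and 16.2, 18.99 and 18.2 CPM in the wild-type line without it. The mutant line was lower with doxycycline (log2 fold change -1.60, SE 0.21, adjusted p = 4.85e-09) and without it (log2 fold change -2.25, SE 0.20, adjusted p = 3.57e-14). *Uhrf1*, which brings DNMT1 to newly replicated DNA, had 306, 304 and 304 CPM in the mutant line with doxycycline, 318, 313 and 314 CPM in the mutant line without it, 428, 440.3 and 452 CPM in the wild-type line with doxycycline, and 422, 414 and 425 CPM in the wild-type line without it. Its difference was smaller but also free of overlap (log2 fold change -0.53, SE 0.04, adjusted p = 9.18e-16 with doxycycline and log2 fold change -0.42, SE 0.04, adjusted p = 4.08e-12 without it).

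In the wild-type line 2 of the 22 factors were lower with doxycycline and 0 higher, beside 2.56% of all genes lower and 2.76% higher. The de novo methyltransferase *Dnmt3a* had 416, 433 and 432 CPM in the mutant line with doxycycline, 411, 409 and 431 CPM in the mutant line without it, 279, 291 and 273 CPM in the wild-type line with doxycycline, and 430.3, 407 and 422 CPM in the wild-type line without it. The wild-type libraries with doxycycline stood apart below the other 9 (log2 fold change -0.58, SE 0.04, adjusted p = 1.20e-15), and the difference between the responses passed the test (log2 fold change 0.61, SE 0.06, adjusted p = 5.97e-11). With doxycycline *Dnmt3a* was thus higher in every mutant library than in every wild-type one, unlike the factors detailed above. Without doxycycline the lines overlapped. *Tet2*, an enzyme that oxidises methylated cytosine, had 6.796, 9.83 and 6.799 CPM in the mutant line with doxycycline, 13.3, 9.77 and 8.55 CPM in the mutant line without it, 9.37, 13.1 and 11.7 CPM in the wild-type line with doxycycline, and 16.2, 15.6 and 23.1 CPM in the wild-type line without it, and fell in the wild-type line (log2 fold change -0.69, SE 0.17, adjusted p = 0.00828). In the mutant line edgeR's quasi-likelihood test called 0 of the 22, with 2 at an unadjusted p under 0.05. Whether any imprinted gene's level followed from these factors was not tested.

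**Figure D5:**
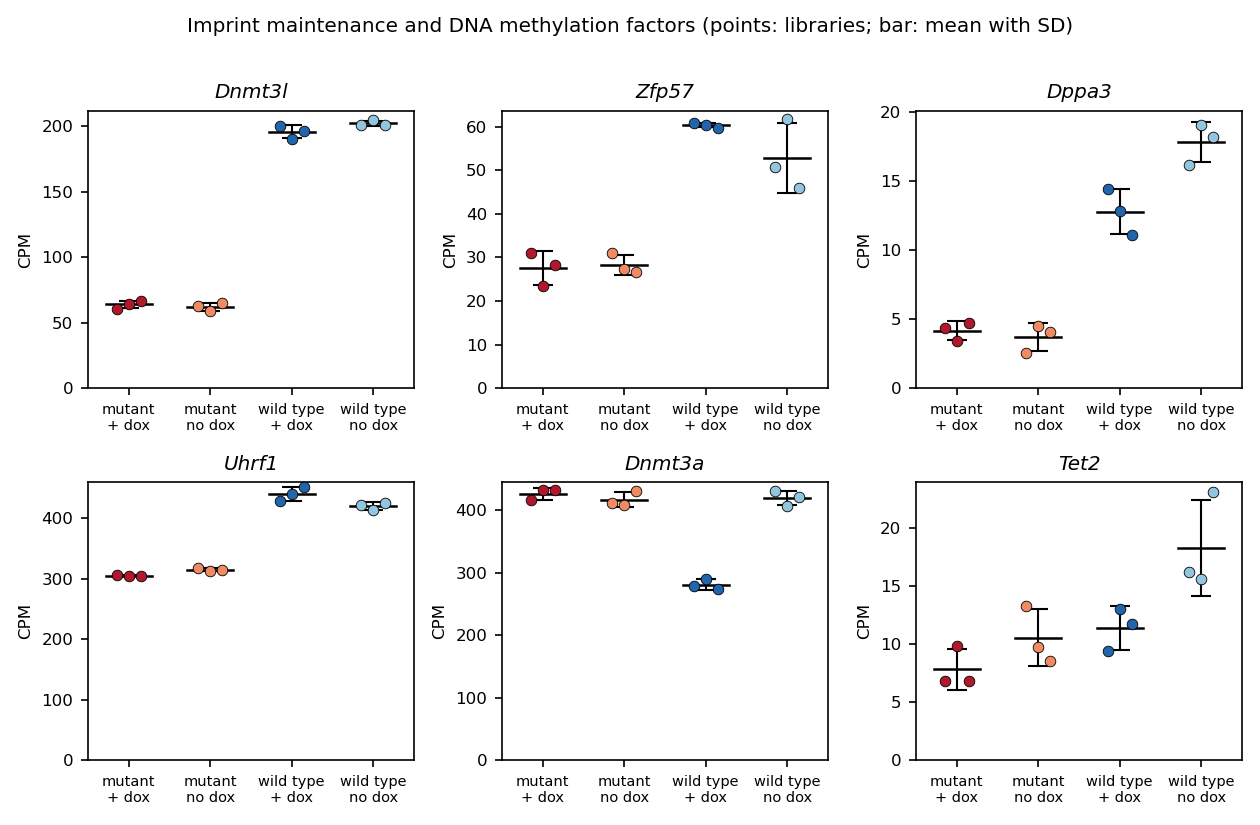
CPM of the imprint maintenance and DNA methylation factors *Dnmt3l*, *Zfp57*, *Dppa3*, *Uhrf1*, *Dnmt3a* and *Tet2* in each of the 12 libraries (points), with the mean and SD of each group (bars). *Dnmt3l*, *Zfp57*, *Dppa3* and *Uhrf1* are lower in all mutant libraries than in all wild-type libraries, and *Dnmt3a* is lowest in the 3 wild-type libraries with doxycycline.

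Genes beside or around the imprinted genes but not among the 43 were differently expressed between the lines at a share close to the backgrounds of 44.4% with doxycycline and 45.5% without it. Of 39 such genes 21 were tested, and 10 were called with doxycycline (7 higher, 3 lower in the mutant line) and 11 without it (7 higher, 4 lower). *Slc38a2*, an amino acid transporter next to *Slc38a4*, was lower in the mutant line (log2 fold change -0.64, SE 0.04, adjusted p = 6.49e-19 with doxycycline; log2 fold change -0.65, SE 0.04, adjusted p = 2.17e-19 without it). The calcitonin receptor gene *Calcr*, near *Peg10*, was higher in the mutant line (log2 fold change 1.19, SE 0.12, adjusted p = 9.53e-12 with doxycycline; log2 fold change 0.96, SE 0.13, adjusted p = 4.50e-09 without it). *Casd1*, also near *Peg10*, was higher in the mutant line without doxycycline (log2 fold change 0.81, SE 0.15, adjusted p = 1.08e-05). *Osbpl1a*, beside *Impact*, was lower in the mutant line with doxycycline (log2 fold change -0.52, SE 0.10, adjusted p = 1.09e-05). In the wild-type line 1 of the 21 was lower with doxycycline, *Atp10a* of the *Snrpn-Ube3a* region (log2 fold change -0.45, SE 0.09, adjusted p = 0.000261), beside 5.32% of all genes called and 2.56% lower.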

How the data were processed

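The authors deposited 1 table of raw read counts per gene, with a column for each of the 12 libraries. Per the submitters' processing notes, Trimmomatic 0.33, TopHat2 2.1.1, the mm10 genome and limma were used by the authors. The sources used here name no counting tool or annotation, nor whether strand was used. Groups came from the sample titles. All replicate pairs differed by more than sampling noise (lowest chi-square per degree of freedom 1.11).

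Genes were tested with edgeR 4.0.16 (R 4.3.3; quasi-likelihood test, TMM scaling, filterByExpr with a minimum count of 10, robust estimation, all 12 libraries in 1 fit), with Benjamini-Hochberg adjustment over 12322 genes in each of 5 comparisons and calls at an adjusted p under 0.05. The SE was obtained as the size of the log2 fold change over the root of the F statistic. Simulated counts of the comparison of the lines without doxycycline held 200 changed genes, 50 at each fold size. Of these, 62% of 1.5-fold and 86% of 2-fold changes among 12169 genes were recovered. Genes simulated without a change made up 7.57% of the genes called there, and 8.02% in the wild-type response. In the data 45.5% of genes were called in that comparison of the lines, so these rates need not hold for it.

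Values for every library are given for the 12 most abundant members and up to 8 called members with the largest change in a comparison. Outside that rule they are also given for *Igf2* and *Zrsr1*, and for the wild-type libraries of *Kcnq1ot1*. From each list of other genes, up to 4 called genes with the smallest adjusted p in a comparison are named. Other members are given by group means, and *Commd1* by its adjusted p only. The members, lists and tests were chosen with earlier results of these data known. Alternatives were upper-quartile and RLE scaling, no filter, DESeq2 1.42.0, limma-voom (limma 3.58.1), only the libraries compared, a replicate block, and leaving out each library. Leaving out both libraries that stood apart was added after seeing the data.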

Additional observations from a re-analysis of the deposited data

Results flagged for a closer look

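The doxycycline response of *Mest* differed between the lines by -0.83 on the log2 scale (mutant minus wild-type, SE 0.08, adjusted p = 4.85e-12 by edgeR's quasi-likelihood test), with 129 ± 6.08 and 124 ± 8.34 CPM in the mutant line with and without doxycycline, and 375 ± 13.6 and 204 ± 6.29 CPM in the wild-type line with and without it (SD, n = 3 each). The response of *Rian* differed by 0.38 (SE 0.06, adjusted p = 2.08e-05), with 523 ± 10.6 and 534 ± 6.66 CPM in the mutant line with and without doxycycline, and 249 ± 7.99 and 331 ± 15.2 CPM in the wild-type line with and without it. Both stand here because the difference between the 2 responses was itself tested and passed.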

How the results depend on the processing

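The calls of *H19*, *Nnat*, *Plagl1*, *Rian*, *Meg3*, *Mirg*, *Gnas*, *Mest*, *Grb10*, *Cd81*, *Slc38a4*, *Impact* and *Zrsr1* between the lines held in all alternatives run for them, as did the differences of response of *Mest* (-0.88 to -0.79) and *Rian* (0.35 to 0.41). No called value reversed its direction. The fit of only the libraries compared gave no value for *Plagl1* and *Dcn* with doxycycline, and some alternatives gave none for *Usp29* between the lines or for *Dcn* in the doxycycline responses. Scaling moved the median of all genes by at most 0.011 on the log2 scale. Without the filter on low counts 8 imprinted genes were called in the wild-type response and 6 in the difference of responses. DESeq2 called 380 genes in the wild-type response and 153 in the difference of responses, and the fit of only the libraries compared called 5 genes in the mutant response.

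Leaving out 1 library at a time gave 17 to 21 imprinted genes called between the lines with doxycycline, 18 to 22 without it, 4 to 7 in the wild-type response, 0 in the mutant response and 2 to 4 in the difference of responses, with 4 when the third mutant library lacking doxycycline was left out. Over all genes these fits called 4748 to 4957, 4914 to 5140, 501 to 599, 2 and 229 to 322 in the same order. Without both libraries that stood apart, a choice made after seeing the data, 18 and 19 imprinted genes were called between the lines with and without doxycycline, 4 in the wild-type response and 2 in the difference of responses. The adjusted p was then 0.0913 for *Gnas* in the wild-type response, and 0.154 for *Ndn*, 0.149 for *Mkrn3* and 0.143 for *Ppp1r9a* between the lines with doxycycline. The cause of these changes was not tested.

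Replicate numbers did not pair the libraries (correlations of same-numbered libraries from -0.0646 to 0.0876). With a replicate block 22, 19, 5, 0 and 2 imprinted genes and 5354, 5502, 618, 2 and 286 genes in all were called, and *Peg10* between the lines without doxycycline was lost (adjusted p = 0.0652). *Plagl1*, *H19* in the mutant line, *Usp29*, *Zim1*, *Peg12*, *Dcn* and *Dio3* rest on few counts, so that small changes in them were not detectable at this depth.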
